A study of Mus musculus with 8 samples.

Results

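The 10 genes described here encode mRNA decay factors that act outside the CCR4-NOT deadenylase complex. They were chosen by symbol (Pan3, Parn, Dcp1a, Dcp2, Edc4, Ddx6, Xrn1, Patl1, Lsm1 and Pabpc1), and all 10 were present among the 23235 genes of the table. RNA had been measured in granulosa cells of mouse ovaries (female C57BL/6), the somatic cells of the follicle that enclose and nourish the oocyte. The 4 groups were CNOT6/6L knockout (KO, also labelled Cnot66l DKO) 44 h after PMSG, wild type (WT) 44 h after PMSG, untreated KO (0 h) and untreated WT (0 h), with 2 libraries each. PMSG is a gonadotropin with FSH-like activity that drives follicle growth. There was no untreated group at 44 h, so PMSG and elapsed time cannot be told apart. A PMSG difference below means 44 h after PMSG against untreated 0 h. The age of the animals, the PMSG dose, the knockout alleles and the tissues in which they were deleted are not stated in the labels. The study's title sets CNOT6/6L-mediated mRNA degradation in the context of follicle development. The comparisons below give the RNA levels of the decay machinery around that complex.

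Most mRNA decay in the cytoplasm starts with shortening of the poly(A) tail. The PAN2-PAN3 nuclease, with PAN3 as the adaptor that binds the tail-coating protein PABPC1, and the CCR4-NOT complex, whose nucleases include CNOT6 and CNOT6L, carry out most of it, and PARN is a further poly(A)-specific nuclease. The LSM ring with its subunit LSM1 and the scaffold PATL1 then bind the shortened end, and the helicase DDX6 links them to repression of translation and to decapping. DCP2 removes the cap with the help of DCP1A and the scaffold EDC4, and the exonuclease XRN1 degrades the body of the mRNA from its 5′ end. Growing mouse oocytes store large amounts of mRNA, and DCP1A and DCP2 are known there as factors that increase during meiotic maturation.

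The libraries had summed FPKM between 675557 and 753216. Cnot6 was 26.7 and 17.4 FPKM in 44 h KO against 26.05 and 26.9 in 44 h WT, and 11.7 and 12.01 in 0 h KO against 29.1 and 18.4 in 0 h WT. The library labelled KO replicate 1 at 44 h thus lay within the WT range for Cnot6. A deletion of part of a gene can leave RNA that still counts toward its FPKM. Cnot6l was 2.01 and 1.61 in 44 h KO against 4.20 and 2.63 in 44 h WT, and 4.69 and 1.97 in 0 h KO against 6.11 and 7.07 in 0 h WT. All 12 granulosa markers examined were at or above 1 FPKM in every library, and all 17 oocyte markers were too. The oocyte markers summed to 2914 and 1737 FPKM in 44 h KO, 1227 and 1179 in 44 h WT, 6459 and 5475 in 0 h KO and 2213 and 3810 in 0 h WT. Cyp11a1, which starts steroid synthesis from cholesterol, set the same library apart, at 129 FPKM against 2508 in KO replicate 2 at 44 h, with 4451 and 4339 in 44 h WT, 24.1 and 13.5 in 0 h KO and 78.3 and 29.7 in 0 h WT. Oviduct and ciliated markers, of which 6 of 7 were in the table, summed to 365 FPKM in KO replicate 2 and 387 in WT replicate 1 at 44 h. The other 6 libraries had 16.4 to 77.2. Ovgp1 alone was 279 FPKM in that KO library and 366 in that WT library. All 6 markers were at or above 1 FPKM in the KO library, against 4 in the WT library. Tppp3 was 53.5 FPKM in the KO library, 12.1 in the WT library and 6.68 to 13.7 in the other 6.

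The 10 decay factors fell into a high and a low set. FPKM is scaled to transcript length, so levels can be compared between genes only roughly. The annotation behind those lengths is not stated. Averaged over the 8 libraries, Pabpc1 was at 88.2 ± 11.6 FPKM (SD, n = 8), Parn at 59.5 ± 6.84, Lsm1 at 33.7 ± 2.70, Dcp1a at 31.7 ± 15.0 and Edc4 at 18.8 ± 5.58. The other 5 lay far below, with Patl1 at 4.03 ± 0.986, Ddx6 at 3.26 ± 0.469, Xrn1 at 3.09 ± 0.498, Pan3 at 2.74 ± 0.930 and Dcp2 at 1.67 ± 0.410. The lowest Edc4 library (13.9) was above the highest Patl1 library (5.63). The ranges of Pabpc1, Parn and Lsm1 did not overlap from one to the next. Those of Lsm1 and Dcp1a, of Dcp1a and Edc4, and of each neighbouring pair from Patl1 down to Dcp2 did overlap. Among all 13688 genes tested, Pabpc1 stood at percentile 88.7 of mean FPKM and Dcp2 at percentile 13.9. The catalytic decapping subunit was thus measured at a lower level than its partners Dcp1a and Edc4 in each of the 4 groups. Pabpc1 has close relatives (Pabpc1l, Pabpc4) and pseudogenes in the mouse, and how shared fragments were assigned is not stated in the labels.

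**Figure D1:**
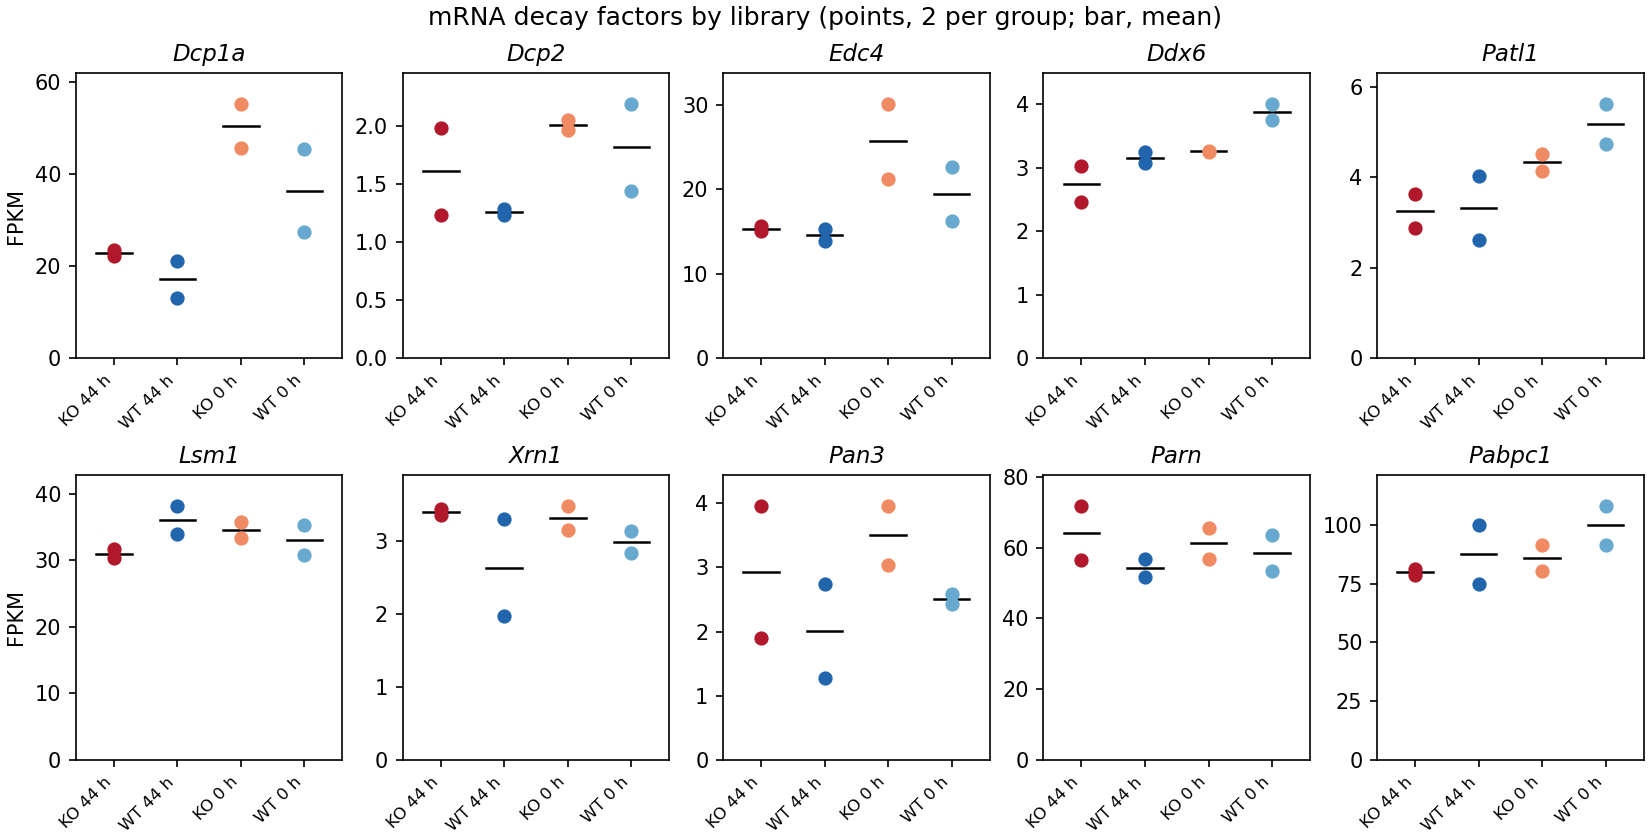
FPKM of the 10 decay factors (vertical axis, starting at 0, one scale per gene) in 44 h KO, 44 h WT, 0 h KO and 0 h WT; each point is 1 library (2 per group) and each bar the group mean. Dcp1a, Edc4, Patl1 and Ddx6 were lower in all 4 libraries at 44 h than in any of the 4 at 0 h, while Lsm1 varied least, from 30.3 to 38.2 FPKM.

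Dcp1a, the decapping activator, was lower at 44 h after PMSG and was the 1 member to pass. It was 22.1 and 23.5 FPKM in 44 h KO against 55.2 and 45.5 in 0 h KO. It was 21.1 and 13.1 in 44 h WT against 27.2 and 45.4 in 0 h WT. Every library at 44 h was below every library at 0 h, in both genotypes. Averaged over both genotypes, Dcp1a was 20.0 ± 4.68 FPKM at 44 h and 43.3 ± 11.7 at 0 h (SD, n = 4 each), a log2 difference of -1.07 (SE 0.211, 95% interval -1.57 to -0.57, limma adjusted p = 0.0257). This was 1 call among 10 members, in a comparison in which 17.5% of all genes tested were called and 12.4% called lower. At an unadjusted p under 0.05 there were 3 members (Dcp1a, Edc4 and Patl1), with 36.1% of all genes. Of all 2396 calls, 71.1% were lower, a share of 53.3% after median-of-ratios scaling and 55.4% after quantile normalization. Dcp1a kept its call under both (adjusted p = 0.0322 and 0.0298, log2 differences of -0.95 and -0.99). The call ended without KO replicate 1 at 0 h (-1.001, adjusted p = 0.079), KO replicate 2 at 0 h (-1.14, 0.0674), WT replicate 2 at 0 h (-0.89, 0.0902), and likewise without WT replicate 1 at 44 h (-1.23, 0.0604). Leaving out WT replicate 2 at 44 h ended it too (-0.91, 0.09). In these 5 fits 0.103% to 0.401% of all genes were called lower. The Dcp1a call held without KO replicate 1 at 44 h (-1.05), KO replicate 2 at 44 h (-1.09), and also without WT replicate 1 at 0 h (-1.25). In each of these fits a larger share of all genes was called lower than in any of the 5 above.

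Within a genotype the Dcp1a difference was -1.10 in KO (SE 0.299, adjusted p = 0.127) and -1.04 in WT (SE 0.299, adjusted p = 0.12), so neither passed on its own, where 0.139% of all genes were called in KO and 0.0804% in WT. At an unadjusted p under 0.05 there were 2 members in KO (21.1% of all genes) and 1 in WT (24.1%). Leaving out 1 library moved the WT value between -1.39 (first WT library at 0 h left out) and -0.68 (second WT library at 0 h left out), and the KO value between -1.24 and -0.97. The genotype difference in the Dcp1a change was -0.068 (95% interval -1.06 to 0.93, adjusted p = 1), an interval that reaches about as far to either side as the averaged change itself. Relative to its own 0 h mean, Dcp1a lay at -1.15 and -1.06 in the KO libraries at 44 h and at -0.71 and -1.36 in the WT libraries. The library labelled KO replicate 1 at 44 h, which lay within the WT range for Cnot6, had a Dcp1a level (22.1 FPKM) between those of WT replicate 1 (21.1) and KO replicate 2 (23.5).

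Oocyte marker RNA was also lower at 44 h. All 17 oocyte markers were called lower at 44 h in the comparison averaged over genotypes (median log2 difference -1.35), and the same 3 libraries (both KO at 0 h and WT replicate 2 at 0 h) were highest in the oocyte sum and in Dcp1a, while the WT libraries at 44 h were lowest in both. Within untreated WT, replicate 2 had more oocyte marker RNA (3810 against 2213) and more Dcp1a (45.4 against 27.2 FPKM) than replicate 1. Within 44 h KO the order differed, as replicate 1 had more oocyte marker RNA (2914 against 1737) but slightly less Dcp1a (22.1 against 23.5 FPKM). That KO library also had more oocyte marker RNA than WT replicate 1 at 0 h, but less Dcp1a. Theca and stroma markers summed to 243 to 358 FPKM in 44 h KO and 298 to 321 in 44 h WT, against 104 to 140 in 0 h KO and 109 to 118 in 0 h WT. Cyp17a1 alone was 81.9 and 125 FPKM in 44 h KO and 137 and 97.7 in 44 h WT. At 0 h it was 2.28 and 9.29 in KO and 21.6 and 1.95 in WT. In KO replicate 1 at 44 h, Col1a1, Col1a2, Col3a1 and Lum were below both KO libraries at 0 h. Averaged over genotypes, 2 of the 8 markers were called higher at 44 h (5.06% of all genes). Immune markers summed to 707 FPKM in KO replicate 1 at 0 h, the library highest in Dcp1a (55.2 FPKM) and Edc4 (30.2 FPKM). Their sum was 105 in KO replicate 2 at 0 h, 157 to 176 in 0 h WT, 281 to 346 in 44 h KO and 169 to 239 in 44 h WT. The part of oocyte or other cells' RNA in the differences of Dcp1a and the other members was not tested. Fewer cells of a type and less RNA per cell cannot be told apart in bulk samples.

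**Figure D2:**
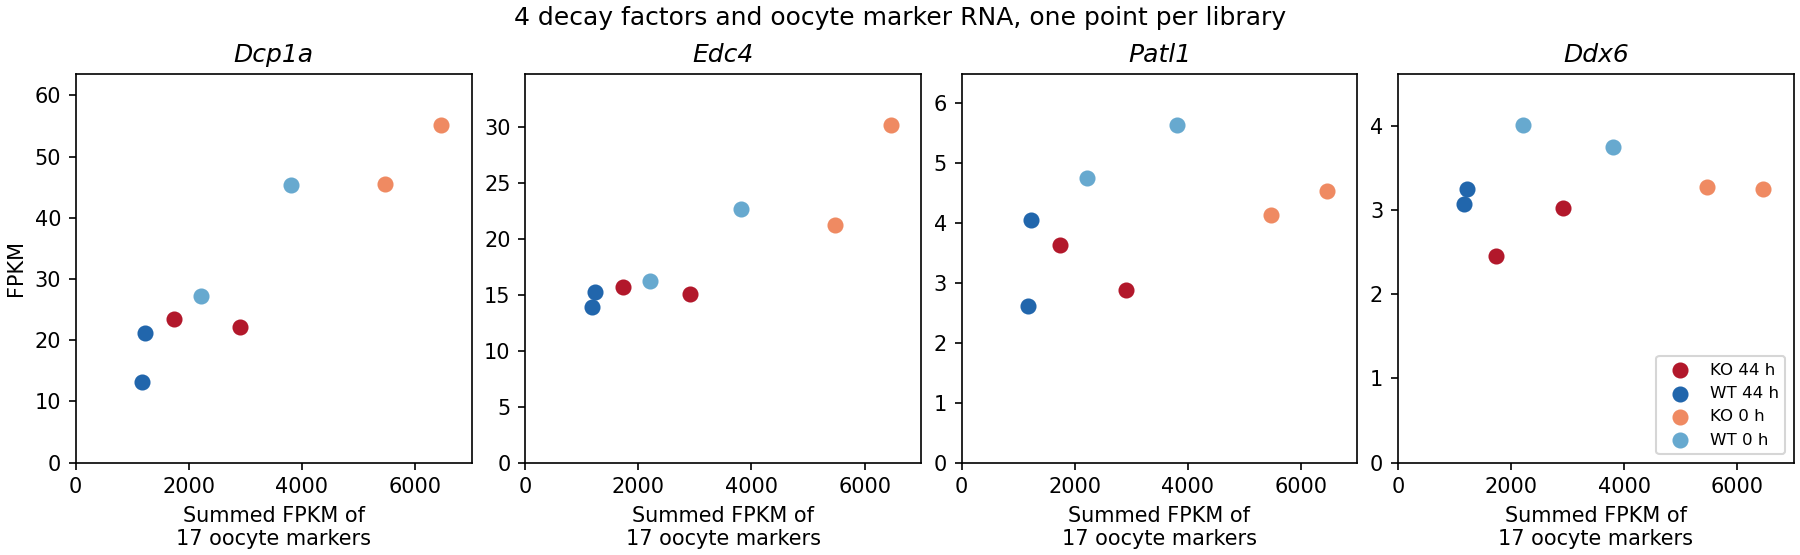
FPKM of Dcp1a, Edc4, Patl1 and Ddx6 (vertical axes) against the summed FPKM of 17 oocyte markers (horizontal axis), 1 point per library, coloured by group. The KO libraries at 0 h, with oocyte sums of 5475 and 6459, lie furthest to the right, and replicate 1 of them is highest for Dcp1a and Edc4. KO replicate 2 at 0 h is level with WT replicate 2 at 0 h (oocyte sum 3810) for Dcp1a (45.5 and 45.4 FPKM). For Edc4 it lies below that WT library (21.2 and 22.7 FPKM). The highest Ddx6 value, 4.01 FPKM, belongs to a WT library with an oocyte sum of 2213.

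Edc4, the scaffold that joins DCP1A to DCP2, had the profile most like Dcp1a among the members (Pearson r = 0.93 over 8 libraries, as a description). It was 15.0 and 15.7 FPKM in 44 h KO against 30.2 and 21.2 in 0 h KO, and 15.3 and 13.9 in 44 h WT against 16.2 and 22.7 in 0 h WT. The 4 libraries at 44 h were close together and all below the 4 at 0 h, by a small margin in WT. The averaged difference was -0.53 (SE 0.163, limma adjusted p = 0.0641), which did not pass. In KO alone it was -0.69 (adjusted p = 0.165), and it became -0.44 when the first KO library at 0 h was left out and -0.93 when the second was. In WT alone it was -0.38 (adjusted p = 0.354), and it became -0.61 when the first WT library at 0 h was left out and -0.15 when the second was.

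Dcp2, the cap-removing enzyme itself, was near the floor of the filter. It was 1.98 and 1.23 FPKM in 44 h KO against 1.97 and 2.05 in 0 h KO, and 1.23 and 1.28 in 44 h WT against 1.44 and 2.19 in 0 h WT. The WT groups did not overlap, whereas the library labelled KO replicate 1 at 44 h lay within the KO range at 0 h. The averaged difference was -0.26 (95% interval -0.65 to 0.13, limma adjusted p = 0.293) and spanned -0.37 to -0.16 over the leave-one-out fits.

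Patl1, the scaffold that bridges DDX6 and the LSM ring, was 2.88 and 3.63 FPKM in 44 h KO against 4.52 and 4.14 in 0 h KO, and 4.04 and 2.62 in 44 h WT against 4.74 and 5.63 in 0 h WT. Ddx6, the helicase, was 3.02 and 2.46 in 44 h KO against 3.251 and 3.27 in 0 h KO, and 3.247 and 3.07 in 44 h WT against 4.01 and 3.75 in 0 h WT. Both were lower in every library at 44 h than in any at 0 h, Ddx6 by a very small margin, but neither passed. The averaged difference was -0.43 for Patl1 (95% interval -0.82 to -0.038, limma adjusted p = 0.113) and -0.21 for Ddx6 (-0.53 to 0.10, adjusted p = 0.29). In all, 4 of 10 members (Dcp1a, Edc4, Patl1 and Ddx6) were lower at 44 h with no overlap between the 4 libraries at 44 h and the 4 at 0 h, as were 13.3% of all genes tested, and 0 were higher without overlap (5.98% of all genes). Within KO 5 of 10 were lower without overlap (the same 4 and Lsm1, against 34.1% of all genes), and within WT 5 of 10 (the same 4 and Dcp2, against 40.6%). Without KO replicate 1 at 44 h the averaged differences were -0.52 for Edc4, -0.37 for Patl1, -0.27 for Ddx6 and -0.37 for Dcp2, none of which passed.

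The sequences before the start sites of Dcp1a, Edc4 and Patl1 are shown because these genes had the largest differences after PMSG. RefSeq (GRCm38.p6) gave a promoter for 6 of the 10 members, with no entry for Dcp2, Ddx6, Lsm1 and Pabpc1. The 250 bases that end just before each start are printed on the coding strand, which is the plus strand for all 3. They lie at chr14:30479315-30479564 (Dcp1a), chr8:105880631-105880880 (Edc4) and chr19:11912149-11912398 (Patl1). Capitals mark every match, on either strand, to 6 motifs: CCGGAAG (ETS core), GGGCGG (GC box), CCAAT (the box bound by NF-Y), AAGGTCA (SF-1 site), TGACG (CRE core) and the NRF1 core.
Dcp1a: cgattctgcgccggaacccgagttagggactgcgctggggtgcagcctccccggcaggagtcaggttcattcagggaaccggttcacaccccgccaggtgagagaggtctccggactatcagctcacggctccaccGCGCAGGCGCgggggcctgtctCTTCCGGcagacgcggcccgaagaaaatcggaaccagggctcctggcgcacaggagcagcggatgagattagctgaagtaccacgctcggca
Edc4: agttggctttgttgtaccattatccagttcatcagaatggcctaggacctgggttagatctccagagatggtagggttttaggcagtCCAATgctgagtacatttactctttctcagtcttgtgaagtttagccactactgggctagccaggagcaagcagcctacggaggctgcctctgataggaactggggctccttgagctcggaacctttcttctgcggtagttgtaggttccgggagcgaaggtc
Patl1: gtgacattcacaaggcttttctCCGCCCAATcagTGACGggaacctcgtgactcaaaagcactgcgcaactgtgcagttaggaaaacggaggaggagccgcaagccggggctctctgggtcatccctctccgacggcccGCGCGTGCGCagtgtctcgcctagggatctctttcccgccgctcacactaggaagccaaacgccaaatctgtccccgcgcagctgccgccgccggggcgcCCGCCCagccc
Dcp1a held an NRF1 core 114 to 105 bases before the start and an ETS core 92 to 86 bases before it. Over 32851 promoter windows of the same length, 3.74% held the NRF1 core and 6.91% the ETS core. Patl1 held an NRF1 core too, at 111 to 102 bases before the start, along with a pair of GC boxes (32.7% of windows), of which the upstream one overlaps a CCAAT box (33.9%), and a CRE core (17.8%). Edc4, whose profile was closest to that of Dcp1a, held a CCAAT box and no other match. The SF-1 site, present in 4.08% of windows, was in none of the 6 members' windows. The windows of Dcp1a and Patl1 were 65.2% and 64.4% G or C and that of Edc4 50.8%, beside a median of 52.4% over all windows. A match is a description of these letters and not a bound site.

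Lsm1, the subunit that distinguishes the cytoplasmic LSM ring, was the steadiest member. It was 31.7 and 30.3 FPKM in 44 h KO, 33.9 and 38.2 in 44 h WT, 33.4 and 35.8 in 0 h KO and 35.2 and 30.8 in 0 h WT. Its highest library was 1.26 times its lowest, against 4.21 times for Dcp1a. The averaged difference after PMSG was -0.016 (95% interval -0.27 to 0.23, limma adjusted p = 0.93), turning to 0.11 after median-of-ratios scaling and 0.062 after quantile normalization.

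Xrn1, the exonuclease that follows decapping, was 3.44 and 3.37 FPKM in 44 h KO, 3.30 and 1.97 in 44 h WT, 3.49 and 3.15 in 0 h KO and 2.85 and 3.14 in 0 h WT. WT replicate 2 at 44 h stood below the other 7 libraries, and without it the averaged PMSG difference was 0.068 in place of -0.065 (95% interval -0.45 to 0.32, limma adjusted p = 0.8).

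On the side of the poly(A) tail, Pan3 was 3.96 and 1.89 FPKM in 44 h KO, 2.74 and 1.28 in 44 h WT, 3.96 and 3.04 in 0 h KO and 2.43 and 2.58 in 0 h WT. In both genotypes replicate 1 at 44 h was at or above the lower 0 h library and replicate 2 was below both, so the libraries of a group at 44 h lay on both sides of the lower library at 0 h. Without KO replicate 1 at 44 h the averaged Pan3 difference was -0.45 (adjusted p = 0.166), and over all leave-one-out fits it reached -0.058. Parn was 71.9 and 56.6 in 44 h KO, 51.6 and 56.8 in 44 h WT, 56.9 and 65.5 in 0 h KO and 63.6 and 53.5 in 0 h WT. Pabpc1 was 81.0 and 78.5 in 44 h KO, 99.8 and 75.0 in 44 h WT, 91.6 and 80.2 in 0 h KO and 108 and 91.5 in 0 h WT. The groups overlapped between times for all of these genes, in both genotypes. The averaged PMSG differences were -0.25 for Pan3 (95% interval -0.82 to 0.32, limma adjusted p = 0.484), -0.021 for Parn (-0.32 to 0.28, 0.92) and -0.15 for Pabpc1 (-0.46 to 0.16, 0.435). Of the 10 members, Lsm1 and Parn had the narrowest intervals. Without KO replicate 1 at 44 h the Parn difference was -0.11.

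**Figure D3:**
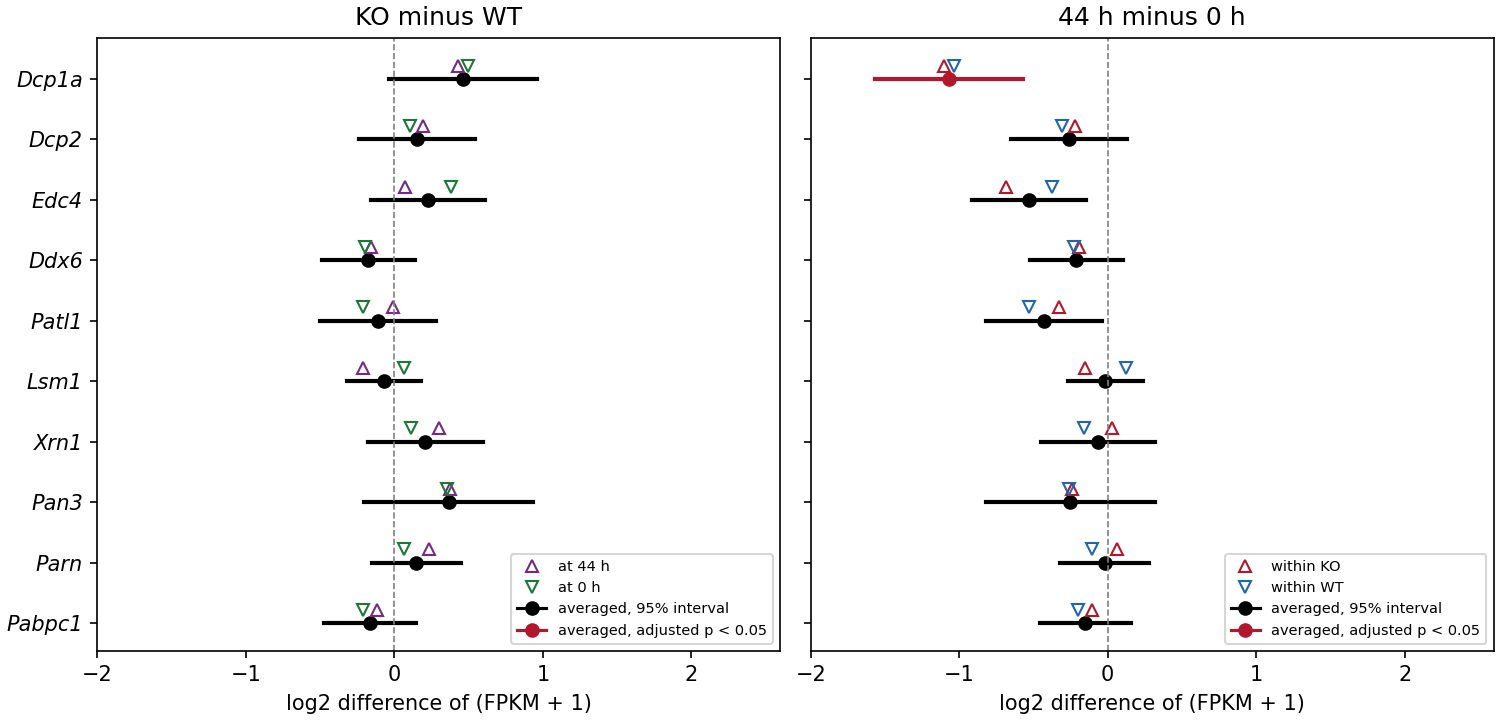
Log2 differences of (FPKM + 1) for the 10 decay factors, KO minus WT on the left and 44 h minus 0 h on the right; circles and lines are the averaged difference with its 95% interval (red where the adjusted p is under 0.05), and open triangles are the differences within each time or genotype. Dcp1a at -1.07 on the right is the 1 red interval, and the intervals on the left all cross 0.

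As a whole, the 10 members had a median PMSG difference of -0.23 averaged over genotypes, beside -0.12 for all genes tested. All 10 were below 0, as were 61.6% of all genes. After median-of-ratios scaling, which moved the median of all genes by 0.11, and after quantile normalization, Lsm1, Parn and Xrn1 turned above 0 and 7 of 10 remained below. In the original scaling 7 of 10 were also below the median of all genes. Within genotypes the median was -0.21 in KO (8 of 10 below 0, against 60.7% of all genes) and -0.25 in WT (9 of 10, against 61.9%), beside -0.11 in KO and -0.13 in WT for all genes.

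Between genotypes, 0 of the 10 members passed at either time or averaged over both. Limma called 0.0219% of all genes between KO and WT at 44 h, 0.0365% at 0 h and 0.11% averaged over both times, and 0 members had an unadjusted p under 0.05 in any of these (9.79% of all genes at 44 h, 9.69% at 0 h and 17% averaged). Without KO replicate 1 at 44 h, the averaged differences of the members ran from -0.23 for Ddx6 to 0.49 for Dcp1a. In the fit to all 8 libraries Dcp1a lay closest to the threshold, at 0.43 at 44 h and 0.50 at 0 h. Its KO libraries were above its WT libraries without overlap at both times. The margin at 0 h was narrow (45.5 in KO replicate 2 and 45.4 in WT replicate 2). Its averaged difference was 0.46 (SE 0.211, 95% interval -0.034 to 0.96, adjusted p = 0.325). Leaving out 1 library moved these values: the 0 h value was 0.14 without WT replicate 1 and 0.86 without WT replicate 2, the 44 h value was 0.76 without WT replicate 1 and 0.10 without WT replicate 2, and the averaged value spanned 0.28 to 0.64 over the leave-one-out fits. The oocyte markers were also higher in KO, with a median of 0.99 averaged over both times and 0 of 17 called, and their part in the Dcp1a difference was not tested. Pan3 was at 0.36 averaged over both times (95% interval -0.21 to 0.93, adjusted p = 0.488) and at 0.17 without KO replicate 1 at 44 h (up to 0.56 without another library), with a non-overlapping difference at 0 h and overlapping libraries at 44 h.

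The count of members whose KO and WT libraries did not overlap was near the share of all genes. Ddx6 was lower in both KO libraries than in both WT libraries at 44 h and again at 0 h, with an averaged difference of -0.18 (95% interval -0.49 to 0.14, limma adjusted p = 0.544). Xrn1 was higher in both KO libraries at each time, by margins of 3.15 in KO against 3.14 in WT at 0 h and 3.37 in KO against 3.30 in WT at 44 h, with an averaged difference of 0.21 (-0.18 to 0.59, adjusted p = 0.559). At 44 h the Xrn1 difference was 0.30, and 0.035 without WT replicate 2. At 0 h it was 0.11, and -0.050 after quantile normalization. Over the leave-one-out fits the averaged difference spanned 0.075 to 0.34 for Xrn1 and -0.23 to -0.12 for Ddx6. At 0 h, 27.3% of all genes were higher in KO without overlap (3 of 10 members: Dcp1a, Pan3 and Xrn1) and 19.1% lower (2 of 10: Ddx6 and Patl1). At 44 h, 23.9% of all genes were higher in KO without overlap (2 of 10: Dcp1a and Xrn1) and 15.1% lower (2 of 10: Ddx6 and Lsm1). Over the 4 KO and 4 WT libraries together, 0 members separated, where 2.14% of all genes were higher and 1.86% lower without overlap. For the other members the averaged genotype difference was 0.15 for Parn (95% interval -0.15 to 0.45; 0.063 without KO replicate 1 at 44 h), 0.15 for Dcp2 (-0.24 to 0.54; 0.046 without it), 0.23 for Edc4 (-0.16 to 0.61), -0.16 for Pabpc1 (-0.47 to 0.14), -0.11 for Patl1 (-0.50 to 0.28; -0.047 without it) and -0.072 for Lsm1 (-0.32 to 0.18). Leaving out 1 library moved the averaged value between 0.11 and 0.35 for Edc4, between -0.27 and -0.062 for Pabpc1 and between -0.12 and -0.025 for Lsm1. The intervals of these other members hold changes of up to 0.61 on the log2 scale, and those of Dcp1a and Pan3 reach 0.96 and 0.93. A p that misses the threshold thus does not show equal levels in KO and WT. The median over the members was 0.15, beside 0.033 for all genes tested.

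The difference in the PMSG change between genotypes was also called for 0 members, with 0.0438% of all genes called and 0 members at an unadjusted p under 0.05 (1.82% of all genes). The value was -0.31 for Edc4 (95% interval -1.08 to 0.46, and -0.55 to -0.067 over the leave-one-out fits) and -0.28 for Lsm1 (95% interval -0.78 to 0.22, and -0.37 to -0.18 over the leave-one-out fits), both with a limma adjusted p of 1. The other 8 members had values nearer to 0 in the fit to all 8 libraries.

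Other genes of mRNA decay were called at 44 h about as often as all genes. Of 71 further genes tested in 6 lists (other decapping and LSM factors, other PAN and poly(A)-binding factors, other deadenylases, exosome and SKI, nonsense-mediated decay and uridylation, and CCR4-NOT), 10 were called lower at 44 h averaged over genotypes (14.1%, against 12.4% of all genes) and 0 higher (5.06% of all genes). The count was 6 lower and 1 higher (Nudt16, a relative of DCP2 with decapping activity) after quantile normalization (7.58% of all genes lower) and after median-of-ratios scaling (7.43%). Both scalings were planned, and only this recount of the lists was added after seeing the data. The 6 were Ccrn4l, Cnot4, Eif4enif1, Pabpc4, Paip2b and Patl2. The number called lower was 0 when any 1 of the same 5 libraries that ended the Dcp1a call was left out (both KO and the second WT library at 0 h, both WT libraries at 44 h), fits in which 0.103% to 0.401% of all genes were called lower. Leaving out KO replicate 1 at 44 h raised the number called lower. Leaving out its fellow replicate, or the first WT library at 0 h, reduced it. In each of these fits the share of all genes called lower moved in the same direction. Among decapping and LSM factors 3 of 18 were called, against 17.5% of all genes in either direction. Patl2, a paralogue of Patl1 known from oocytes, was at -1.27 (SE 0.173, limma adjusted p = 0.0146). It was 14.4 and 8.94 FPKM in 44 h KO and 4.04 and 3.53 in 44 h WT, against 30.1 and 28.1 in 0 h KO and 9.41 and 11.7 in 0 h WT. Eif4enif1, which binds the cap-binding protein eIF4E and DDX6, was at -0.94 (adjusted p = 0.0285), and Lsm14a, a partner of DDX6, at -0.37 (adjusted p = 0.0492).

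The counts at 44 h for the remaining lists stand beside 17.5% of all genes called in this comparison, 12.4% lower. Among poly(A)-binding factors 3 of 10 were called: Pabpc1l, the poly(A)-binding protein of mouse oocytes, at -1.09 (limma adjusted p = 0.0395), Pabpc4 at -0.86 (0.0277) and Paip2b, an inhibitor of PABPC1, at -0.69 (0.0256). Pabpc1l was 11.4 and 6.82 FPKM in 44 h KO and 6.11 and 6.91 in 44 h WT, against 29.9 and 18.9 in 0 h KO and 8.65 and 18.1 in 0 h WT. Its relative Pabpc1, described above, was not called. Ccrn4l, a deadenylase-like protein also named nocturnin, was the 1 of 6 other deadenylases (-0.86, adjusted p = 0.0243). Upf2, of nonsense-mediated decay, was at -0.66 (0.0364) and Zcchc11, a terminal uridylyltransferase, at -0.66 (0.0368), 2 of 10. Cnot4, a ubiquitin ligase that associates with CCR4-NOT, was the 1 of 10 measured CCR4-NOT genes (-0.59, 0.0259), and 0 of 17 exosome and SKI genes passed (1 at an unadjusted p under 0.05, where 36.1% of all genes stood), the lowest adjusted p being 0.0639 for Dis3l. Between KO and WT, 0 of the 71 passed at either time or averaged, where 0.0219% of all genes were called at 44 h, 0.0365% at 0 h and 0.11% averaged. The lowest averaged p was that of Patl2 (a log2 difference of 1.38, adjusted p = 0.0674). The 17 oocyte markers, all lower at 44 h, were also all above 0 in KO against WT (median 0.99), and their part in the differences of Patl2, Pabpc1l and the other genes of these lists was not tested.

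**Figure D4:**
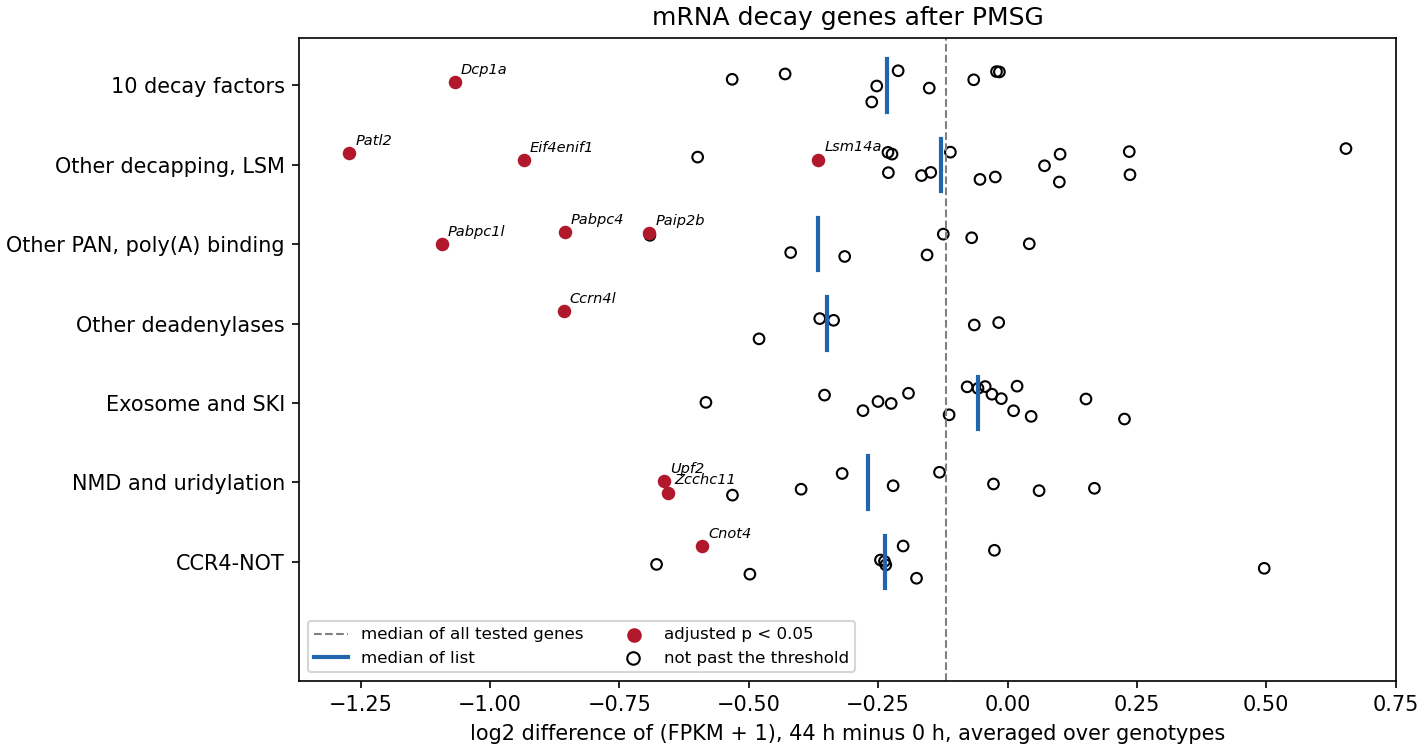
Log2 differences of (FPKM + 1), 44 h minus 0 h averaged over genotypes (horizontal axis), for each tested gene of the 10 decay factors and of 6 wider lists; red points passed an adjusted p under 0.05, blue bars are list medians and the dashed line is the median of all tested genes (-0.12). All red points lie below 0 in this scaling (Nudt16 was called higher under both other scalings), with Patl2 at -1.27 the lowest.

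Across the 8 libraries the members did not vary as 1 block. Dcp2 and Patl1 were also most like Dcp1a (r = 0.76 and 0.77), Pan3 was most like Xrn1 (0.79) and Pabpc1 most like Ddx6 (0.73). Lsm1 ran against Xrn1 (-0.74) and had a negative r (-0.30) with the mean profile of the other 9. The mean z-score of the members was 0.014 and -0.71 in 44 h KO, -0.18 and -0.95 in 44 h WT, 0.64 and 0.43 in 0 h KO and 0.35 and 0.39 in 0 h WT. Replicate 1 at 44 h was thus above replicate 2 in both genotypes. Of 8898 other genes with a mean FPKM of at least 5, the 5 most like this profile were Cxcr7 (r = 0.99), Lztfl1 (0.98), Ubn1 (0.97), Plagl1 (0.97) and Zcchc11 (0.97). All of these values come from the same 8 libraries, whose depth and makeup the genes share, and they are descriptions only.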

How the data were processed

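The deposited table holds FPKM, fragment numbers that the authors scaled to transcript length and library size, for 23235 gene symbols in 8 libraries, as its header shows. The submitters' processing notes name the mm9 build, Cufflinks 2.2.1 and TopHat2 2.1.1, without saying what each was used for. Annotation and filters are not stated there. Since FPKM are not counts, no count model was applied. Relative depth, read from the smallest FPKM steps, was 0.904 to 1.26 (median library 1).

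FPKM were transformed here to log2(FPKM + 1) from the values the authors deposited, and log2 differences of low genes are understated on this scale. Of all genes, 13688 reached 1 FPKM in 2 or more libraries and were fitted with limma 3.58.1 (R 4.3.3). The model had 4 group means over 8 libraries (4 residual degrees of freedom) and a trended prior variance, and tests were two-sided. Benjamini-Hochberg adjustment ran over the 13688 genes of each of 7 comparisons, and an adjusted p under 0.05 was called. Adjusted p-values are from this fit unless another setting is named. Whether replicates are separate animals is not stated, so p-values reflect the spread among libraries, possibly technical. The fit was run on simulated data with noise drawn separately for each gene and shifts larger than any member's difference here. That setting cannot show how well smaller differences are found or how differences shared across a library act.

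The 10 decay factors and all gene lists were chosen with earlier results of these data known. All 10 factors were named in each comparison, as were the called genes of each wider list (where 0 were called, those with the smallest p). The 5 genes most like the mean profile came from genes with a mean of at least 5 FPKM. Promoters are RefSeq sequences on GRCm38.p6, a different build, matched by symbol. Alternatives changed the pseudocount, the low-value filter, the scaling (quantile, median-of-ratios), the replicate block, the libraries in the fit (compared groups alone, or 1 library left out) and the prior (robust). A crossed replicate numbering was added after seeing the data.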

Additional observations from a re-analysis of the deposited data

How the results depend on the processing

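The counts of decay factors called stayed at 0 under all alternatives run for the 6 comparisons in which 0 were called, leave-one-out fits included. For 44 h against 0 h averaged over genotypes, the count of 1 (Dcp1a) became 0 with a replicate block (log2 difference -1.07, adjusted p = 0.0509) and ranged from 0 to 1 over the leave-one-out fits. It stayed at 1 with a pseudocount of 0.1, no filter, FPKM of at least 5 in 2 libraries, both scalings and robust empirical Bayes. The cause was not tested. Replicate numbers were not shown to pair libraries: deviations of same-numbered libraries correlated between -0.113 and -0.00684 across pairs of groups, and the block changed no other call among the members. A crossed numbering of KO at 44 h, added after seeing the data, called 27 genes in all for 44 h against 0 h in KO and 3 for KO against WT at 44 h, 0 members in either. The number of all genes called moved more. For 44 h against 0 h it went between 781 (replicate block) and 2438 (robust empirical Bayes) around 2396 averaged over genotypes, 6 and 35 around 19 in KO, and 7 and 945 (WT libraries alone) around 11 in WT, and the leave-one-out fits called 26 to 3871, 2 to 1223 and 3 to 1367. For KO against WT it went between 3 and 6 around 3 at 44 h, 3 and 8 around 5 at 0 h, and 6 and 26 around 15 averaged over times, with 0 to 838, 2 to 8 and 5 to 1406 in the leave-one-out fits. The genotype difference in the change gave 4 to 7 around 6, and 4 to 78.

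Of 1055 recomputed log2 differences of the members, 997 kept their direction and their side of the threshold, 6 (all Dcp1a, averaged 44 h against 0 h) lost the call and 52 turned sign, none of them a called one. After median-of-ratios scaling, the averaged PMSG difference turned to 0.11 for Lsm1, 0.10 for Parn and 0.029 for Xrn1, that of Parn in WT to 0.024 and that of Pabpc1 in KO to 0.016. After quantile normalization, the averaged PMSG difference turned to 0.062 for Lsm1, 0.010 for Parn and 0.075 for Xrn1, and KO against WT at 0 h to -0.064 for Dcp2 and -0.050 for Xrn1. Leaving out 1 library turned others. Averaged PMSG differences then spanned -0.062 to 0.031 (Lsm1), -0.11 to 0.064 (Parn) and -0.20 to 0.068 (Xrn1). In KO they spanned -0.63 to 0.15 (Pan3), -0.11 to 0.23 (Parn) and -0.028 to 0.085 (Xrn1), and in WT -0.40 to 0.0040 (Pabpc1), -0.62 to 0.093 (Pan3), -0.23 to 0.017 (Parn) and -0.43 to 0.11 (Xrn1). KO against WT at 44 h spanned -0.016 to 0.40 (Dcp2), -0.32 to 0.087 (Pabpc1), -0.013 to 0.76 (Pan3) and -0.25 to 0.23 (Patl1), at 0 h -0.085 to 0.30 (Dcp2), -0.027 to 0.16 (Lsm1) and -0.059 to 0.19 (Parn), and averaged -0.23 to 0.0094 (Patl1). The genotype difference in the change spanned -0.43 to 0.29 (Dcp1a), -0.12 to 0.29 (Dcp2), -0.072 to 0.15 (Ddx6), -0.11 to 0.30 (Pabpc1), -0.37 to 0.41 (Pan3), -0.0016 to 0.34 (Parn), -0.038 to 0.44 (Patl1) and -0.080 to 0.46 (Xrn1). FPKM carry no counts, so no counting interval can be given for the members near 1 to 4 FPKM.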
